A study of Mus musculus with 27 samples.

Results

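The genes described here serve protein folding and stress signalling in the endoplasmic reticulum (ER). A list of 38 gene symbols was matched by name to the table of linear RNA from mouse lung. The list was chosen with earlier results of these data known. All 38 were found among 21738 unique gene symbols, and all 38 were among the 17433 genes that passed the low-value filter. The 27 libraries were made from total RNA of the left lobe of the lung, and all mice were of the BALB/c AnNHsd strain and 87 days old. Saline libraries (n = 5) came from unsensitized mice. CDG_HDM libraries (n = 10) came from mice sensitized with house dust mite extract and cyclic di-GMP, a bacterial dinucleotide used as a mucosal adjuvant. Dex_CDGHDM libraries (n = 6) came from sensitized mice given the glucocorticoid dexamethasone intraperitoneally at 3 mg/kg. AM155 libraries (n = 6) came from mice given an antisense oligonucleotide to miR-155 intravenously at 2 mg/kg in lipid nanoparticles, and the label of that group does not itself state sensitization. Both agents were given 3 times, on days 11, 18 and 25 of a protocol of 35 days. No group given empty nanoparticles, a control oligonucleotide or vehicle was analysed here. The labels number the libraries within each group but do not say that each is a separate mouse, so the p-values measure the spread between these libraries.

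Proteins bound for secretion or for the cell surface enter the ER through the Sec61 channel, lose their signal peptide, and fold with the help of chaperones and disulfide isomerases. Proteins that fail to fold are pulled back out and degraded. When unfolded proteins accumulate, the membrane sensors Ern1 (IRE1), Eif2ak3 (PERK) and Atf6 start the unfolded protein response, in which the transcription factors Xbp1, Atf4 and cleaved Atf6 raise the transcription of chaperones, degradation factors and other stress genes. Cells that secrete heavily, such as plasma cells, and in the lung also goblet, club and alveolar type 2 cells, are known for a large ER.

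The sequence best known for the ER stress response is the ER stress response element, a CCAAT box and a CCACG box with 9 bases between them, and it is shown because it names which members carry the response's own sequence in their promoter. RefSeq promoters (GRCm38.p6, 250 bases before to 50 after the start) were found for 30 of the 38 members. An exact match to this element on either strand was present in 8 of the 30 (26.7%), against 0.137% of all 27025 gene symbols with a promoter in that table. The matches are printed 5′ to 3′ in the direction of the gene, with the boxes in capitals and 5 bases on either side. A match on the opposite strand reads CGTGG before ATTGG.
Hspa5, chr2:34772020-34772048, plus strand: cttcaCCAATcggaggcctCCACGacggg
Hsp90b1, chr10:86705633-86705661, minus strand: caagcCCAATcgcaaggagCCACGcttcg
Hsp90b1, chr10:86705528-86705556, minus strand: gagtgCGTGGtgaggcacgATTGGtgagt
Calr, chr8:84847070-84847098, minus strand: caacgCGTGGtcgaccctcATTGGcccat
Canx, chr11:50325795-50325823, minus strand: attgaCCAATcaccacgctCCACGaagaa
Pdia6, chr12:17266486-17266514, plus strand: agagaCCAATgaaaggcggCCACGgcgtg
Dnajc3, chr14:118937822-118937850, plus strand: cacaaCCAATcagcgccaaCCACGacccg
Creld2, chr15:88819515-88819543, plus strand: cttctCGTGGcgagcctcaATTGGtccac
Syvn1, chr19:6046527-6046555, plus strand: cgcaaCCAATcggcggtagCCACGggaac
All of these matches lay before the RefSeq start of their gene, from 212 bases before it in Hsp90b1 to 26 bases before it in Syvn1. The stretch printed for Hspa5 overlapped an exon of GENCODE M21, in which the gene starts further upstream, at chr2:34771970.

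A second form of the element has ATTGG and CCACG with 1 base between them. It was found in 2 of the 30 member promoters (6.67%), those of Herpud1 and Dnajb11, against 0.0444% of all gene symbols, and the match in Dnajb11 began 7 bases after the RefSeq start. The Herpud1 match is shown as the form of that element that lay before a start.
Herpud1, chr8:94386372-94386392, plus strand: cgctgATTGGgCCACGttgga
The sequence TGACGTGG, to which Xbp1 is known to bind, was found in 0 of the 30 (0.714% of all symbols), and TGATGCAAT, a composite element known for Atf4 and Ddit3, in 0 of the 30 (0.222%). The letters CCACG alone, which the elements above contain, were present in 24 of the 30 (80.0%), against 35.5% of all symbols. A match is a description of letters, and the absence of a match in this window says nothing of what binds there.

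The stretches before the start of 3 members that rose with sensitization are shown to set a promoter with the full element beside a pair without it, again with element boxes in capitals.
Creld2, chr15:88819496-88819645, plus strand: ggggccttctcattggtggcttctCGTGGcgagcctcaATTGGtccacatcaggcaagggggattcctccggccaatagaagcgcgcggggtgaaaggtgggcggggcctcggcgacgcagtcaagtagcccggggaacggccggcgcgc
Edem1, chr6:108828491-108828640, plus strand: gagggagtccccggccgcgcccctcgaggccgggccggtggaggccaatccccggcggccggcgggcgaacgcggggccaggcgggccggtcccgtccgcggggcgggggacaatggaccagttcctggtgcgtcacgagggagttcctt
Ssr4, chrX:73786903-73787022, plus strand: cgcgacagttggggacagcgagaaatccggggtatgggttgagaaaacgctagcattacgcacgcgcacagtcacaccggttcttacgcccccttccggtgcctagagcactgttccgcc
The Edem1 promoter held CCACG only further upstream, from 240 bases before the start, and the Ssr4 promoter did not hold it.

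Values are TPM, a share of all transcripts corrected for their length, as the authors deposited them. Of the full scale, 9.58% to 11.2% lay outside the linear and circular tables in Saline libraries and 13.0% to 32.8% in the other groups. A change in that part moves the TPM of every gene listed. On the log2(TPM + 1) scale the median of all 17433 genes was -0.10 in CDG_HDM against Saline. Changes below are limma estimates on that scale with their standard error (SE), called at a Benjamini-Hochberg adjusted p under 0.05 over all genes tested. AM155 5, AM155 6 and Dex_CDGHDM 4 had circular sums of 219215 to 240756 TPM, against 32873 to 87913 TPM in the Saline and CDG_HDM libraries. Without these 3 libraries, 19 members in place of 18 passed the test for sensitization, as did 1834 in place of 1630 of all genes in the higher direction. The 3 libraries are in neither group of that comparison and enter it only through the shared estimate of the spread. The median change of the members stayed at 0.27. In whole lung, more cells of a type and more RNA per cell cannot be told apart.

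Sensitization went with higher levels of many ER genes. In CDG_HDM against Saline, 18 of 38 members rose and 0 fell, where 9.35% of all genes tested rose and 22.8% fell. Because the members were chosen with earlier results of these data known, their counts beside these shares are a description, not an independent test. The median change of the members was 0.27, against -0.10 for all genes. Without Saline 4 the median of the members was 0.20 and that of all genes -0.16. In that fit 17 members were called higher. Of all genes, 1444 in place of 1630 were called higher and 5938 in place of 3975 lower. The members that rose were the degradation factors Edem1, Edem2, Herpud1, Syvn1 and Sel1l, the signal peptidase subunits Sec11c, Spcs2 and Spcs3, a set of chaperones and their partners, and parts of the entry channel, while 0 of the 6 sensors and stress transcription factors passed the test. For 11 members every CDG_HDM library lay above every Saline library, which held for 5.07% of all genes. The summed level of all 38 members was 3025 ± 151 TPM (SD, n = 5) in Saline and 3868 ± 435 TPM (SD, n = 10) in CDG_HDM.

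**Figure D1:**
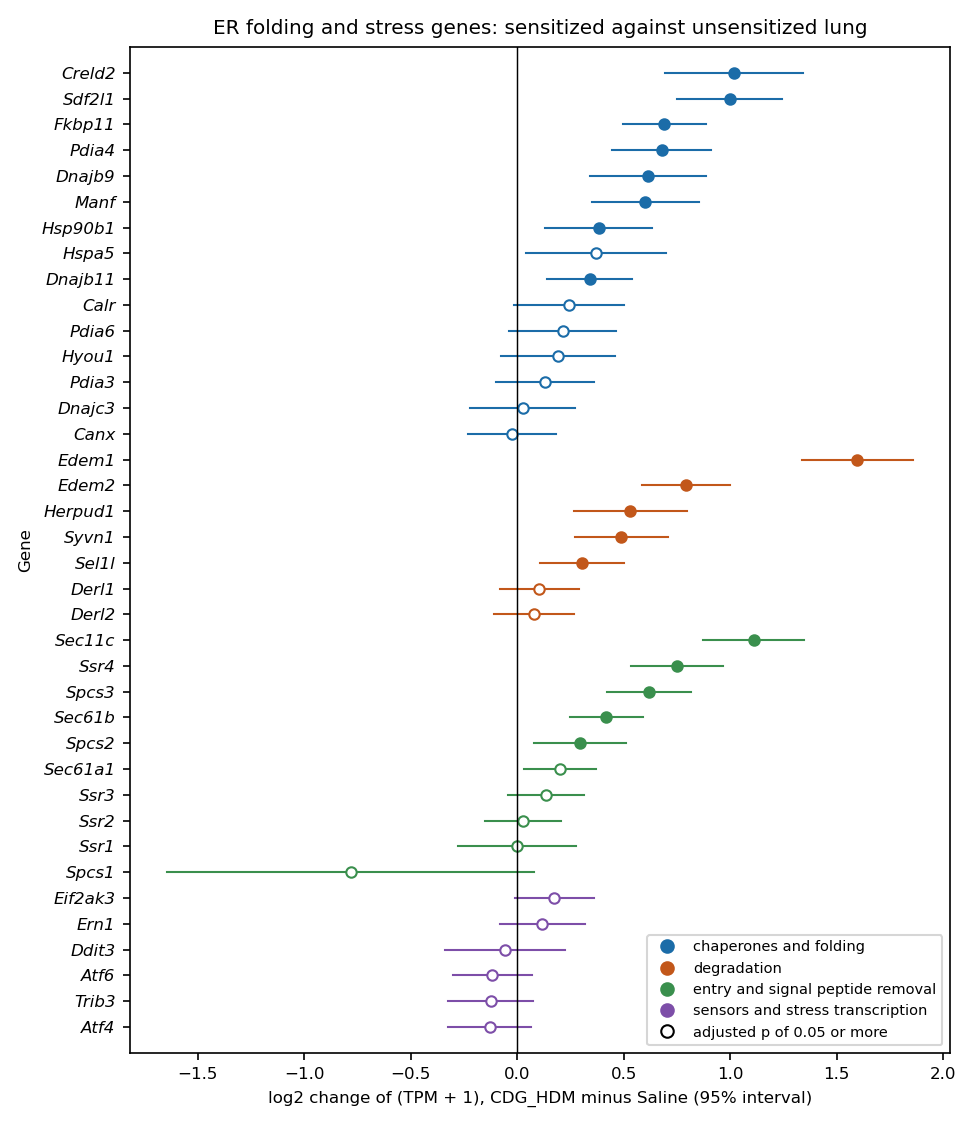
Log2 change of (TPM + 1) in CDG_HDM (n = 10) against Saline (n = 5) for the 38 members, grouped by role, with the 95% interval of the limma fit. Filled points have an adjusted p under 0.05: 8 of 15 chaperones and folding factors, 5 of 7 degradation factors, 5 of 10 entry and signal peptide genes and 0 of 6 sensors and stress transcription factors.

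Among the chaperones and folding factors, 8 of 15 rose and 0 fell, with a median change of 0.37. Creld2, a protein known to be induced by ER stress (GRCm38 chr15:88819646-88826683), stood at 40.1, 46.8, 48.2, 49.1 and 52.4 TPM in the Saline libraries and at 62.0 to 115 TPM in CDG_HDM, with a median of 108 TPM. The groups did not overlap, and the change was 1.02 ± 0.158 (adjusted p = 1e-05), or 2.03-fold. Sdf2l1, a partner of the ER Hsp40 proteins (chr16:17130138-17132383), stood at 42.1, 44.9, 46.7, 46.9 and 48.5 TPM in Saline and at 64.2 to 105.9 TPM in CDG_HDM, with a median of 97.9 TPM. All 10 sensitized libraries were above all 5 controls, a change of 1.00 ± 0.120 (adjusted p = 1.77e-07).

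Fkbp11, a prolyl isomerase of the ER (chr15:98724366-98728198), was among the least abundant members, at 6.71, 7.01, 7.35, 8.79 and 9.89 TPM in Saline and 11.7 to 16.5 TPM in CDG_HDM, with a median of 13.2 TPM. Its ranges did not overlap, and it rose by 0.69 ± 0.0951 (adjusted p = 1.52e-06). Pdia4, a disulfide isomerase (chr6:47796141-47813430), stood at 56.0, 60.9, 61.5, 64.7 and 65.7 TPM in Saline and 75.9 to 112 TPM in CDG_HDM, with a median of 104 TPM. It also showed no overlap and rose by 0.68 ± 0.115 (adjusted p = 3.24e-05). Dnajb9, an Hsp40 partner of Hspa5 that also restrains Ern1 (chr12:44205559-44210326), ranged over 19.4, 23.2, 28.2, 32.8 and 36.3 TPM in Saline and 30.8 to 52.7 TPM in CDG_HDM, with a median of 42.9 TPM. Here the groups overlapped, and the change was 0.62 ± 0.133 (adjusted p = 0.000603).

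Smaller rises were those of Manf, a secreted ER stress protein (0.60), of Hsp90b1, the ER member of the Hsp90 chaperones (0.38, adjusted p = 0.0167), and of Dnajb11, another Hsp40 partner (0.34). The most abundant chaperones did not pass the test. Hspa5 (BiP), the master chaperone and the classic marker of the response (chr2:34771970-34777547), stood at 235, 254, 285, 289 and 304 TPM in Saline and at 231 to 463 TPM in CDG_HDM, with a median of 362 TPM. The CDG_HDM libraries spanned the whole Saline range and reached above it, and the change was 0.37 ± 0.161 (adjusted p = 0.0787). Calr, a lectin chaperone, had 441 ± 57.5 TPM in Saline and 525 ± 88.4 TPM in CDG_HDM (change 0.24, adjusted p = 0.147). The remaining changes were 0.21 for the isomerase Pdia6, 0.19 for Hyou1, a large Hsp70-like chaperone, 0.13 for the isomerase Pdia3, 0.03 for Dnajc3, an Hsp40 that holds back PERK, and -0.02 for the lectin chaperone Canx.

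The degradation factors rose in 5 of 7 cases, with a median change of 0.49. Edem1, a lectin that hands misfolded glycoproteins to degradation (chr6:108828641-108859356), had the largest change of all 38 members. It stood at 6.82, 8.15, 9.00, 9.15 and 12.0 TPM in Saline and at 23.1 to 33.0 TPM in CDG_HDM, with a median of 30.8 TPM. The lowest sensitized library was well above the highest control, and the change was 1.60 ± 0.128 (adjusted p = 1.02e-10), or 3.02-fold. Its relative Edem2 (chr2:155701677-155729475) stood at 22.8, 23.5, 23.9, 24.1 and 25.1 TPM in Saline and at 34.0 to 47.6 TPM in CDG_HDM, with a median of 42.7 TPM. The controls lay close together, the groups were apart, and the change was 0.79 ± 0.101 (adjusted p = 4.36e-07). Herpud1, a membrane adaptor of the degradation complex, rose by 0.53, the ubiquitin ligase Syvn1 by 0.49 and its partner Sel1l by 0.31. The channel proteins Derl1 (0.10) and Derl2 (0.08) did not pass the test.

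Of the entry and signal peptide genes, 5 of 10 rose, with a median change of 0.25. Sec11c, a catalytic subunit of the signal peptidase, stood at 48.8, 49.8, 50.0, 54.1 and 55.2 TPM in Saline and at 90.9 to 141 TPM in CDG_HDM, with a median of 111 TPM. Every sensitized library exceeded every control, a change of 1.11 ± 0.116 (adjusted p = 1.48e-08). Ssr4, a subunit of the translocon-associated protein complex (chrX:73787028-73790830), stood at 89.3, 98.6, 102.4, 109 and 113 TPM in Saline and at 147 to 204 TPM in CDG_HDM, with a median of 175 TPM. It rose by 0.75 ± 0.106 (adjusted p = 2.54e-06) with no overlap. Spcs3, an accessory signal peptidase subunit (chr8:54520433-54529998), stood at 19.1, 22.2, 23.0, 23.1 and 23.3 TPM in Saline and at 30.0 to 38.7 TPM in CDG_HDM, with a median of 35.1 TPM, again apart, a change of 0.62 ± 0.0971 (adjusted p = 1.16e-05).

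Within complexes some subunits passed the test and others did not, and the differences between subunits were not tested. The other subunits of the Ssr4 complex changed by 0.00 (Ssr1), 0.03 (Ssr2) and 0.14 (Ssr3), none past the test, and the interval for Ssr2 ran from -0.15 to 0.21. Of the Sec61 channel, Sec61b rose by 0.42 and Sec61a1 had a change of 0.20 (adjusted p = 0.0634). Of the signal peptidase, Spcs2 rose by 0.29 (adjusted p = 0.0319), but it had a change of 0.20 and did not pass without Saline 4 (adjusted p = 0.121). The third accessory subunit, Spcs1, was listed at only 2.14e-05 to 6.92 TPM across the libraries and had a change of -0.78 with an interval of -1.64 to 0.08. Whether its reads were shared with a near-identical copy was not tested.

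**Figure D2:**
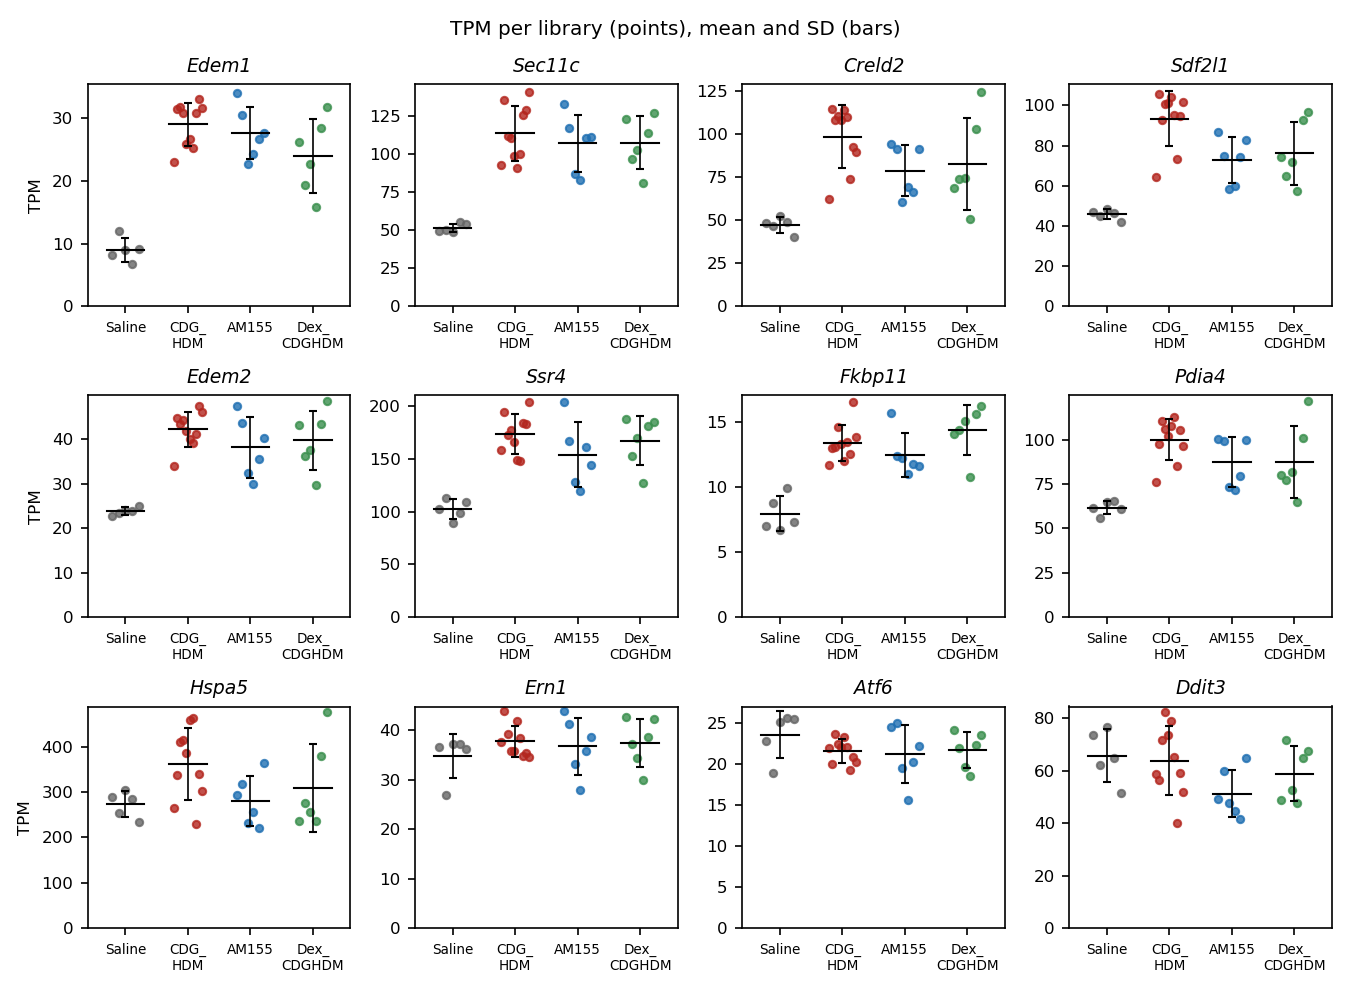
TPM per library for the 8 members with the largest changes in CDG_HDM against Saline, and for Hspa5, Ern1, Atf6 and Ddit3, with the mean and SD of each group. Edem1 stood at 6.82 to 12.0 TPM in Saline and 23.1 to 33.0 TPM in CDG_HDM, whereas the Ern1 and Atf6 groups overlapped.

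The sensors and stress transcription factors showed no call, 0 of 6 as deposited. Ern1, the sensor that splices Xbp1 mRNA, stood at 26.9, 36.2, 36.7, 37.2 and 37.3 TPM in Saline and 34.6 to 44.0 TPM in CDG_HDM, with a median of 36.7 TPM. Eif2ak3, the kinase that slows translation, stood at 15.2, 16.7, 19.1, 19.3 and 19.9 TPM in Saline and 17.4 to 22.7 TPM in CDG_HDM, with a median of 20.9 TPM. Atf6, the sensor cleaved in the Golgi, stood at 18.8, 22.7, 25.1, 25.5 and 25.6 TPM in Saline and 19.2 to 23.6 TPM in CDG_HDM, with a median of 21.9 TPM. The ranges of all 3 overlapped, and the changes were 0.12 ± 0.0969, 0.17 ± 0.0917 and -0.12 ± 0.0906. Atf4, the transcription factor downstream of PERK, had a change of -0.13 (interval -0.33 to 0.07), Ddit3 (CHOP), its death-promoting target, -0.06 (interval -0.34 to 0.22), and Trib3, a target of both, -0.12 (interval -0.32 to 0.08). The 6 genes together summed to 230 ± 17.4 TPM in Saline and 224 ± 23.7 TPM in CDG_HDM. Splicing of Xbp1 and protein activation of the sensors cannot be read from these tables.

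The count of members depended on the scaling. Median-of-ratios scaling, quantile normalization and a common sum of the linear table moved the median of all genes from -0.10 to 0.01, -0.01 and 0.04. They called 29, 30 and 30 members higher (background 22.4%, 20.5% and 26.2% of all genes) and 0 lower. All 18 members called as deposited were also called under each of the 3. Among all genes, the calls were 1630 higher and 3975 lower as deposited, and 3902 and 3756, 3570 and 4252, and 4565 and 2704 under the 3 scalings. Under each scaling the gained members included Hspa5 (0.49, 0.49 and 0.53), Calr, Hyou1, Pdia3, Pdia6, Derl1, Derl2, Sec61a1, Ssr3, Ern1 (0.23, 0.20 and 0.28) and Eif2ak3 (0.29, 0.25 and 0.33). Atf4, Atf6, Ddit3 and Trib3 were not called under any of them, but Atf4 and Atf6 turned from below 0 to above 0 (0.03 and 0.04) with the common sum, and Ddit3 (0.06, 0.04 and 0.11) and Canx (0.09, 0.08 and 0.14) did so under each of the 3.

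By level, the list ran from Calr (485 TPM on average over the 27 libraries), Hspa5 (315), Hsp90b1 (273) and Sec61b (254) down to Atf6 (21.9), Eif2ak3 (19.3), Fkbp11 (12.4), Spcs1 (3.13) and Trib3 (2.02). The ranges over libraries of neighbours in this order overlapped for Hspa5 (221 to 475 TPM), Hsp90b1 (203 to 375 TPM) and Sec61b (187 to 321 TPM). The members with the largest changes, Edem1 (23.9), Sec11c (99.3), Creld2 (81.0) and Sdf2l1 (76.2), were not the most abundant.

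Promoter class and change were set side by side for the 30 members with a promoter. Of the 10 with either form of the stress element, 5 rose, with a median change of 0.36. Of the 14 with CCACG but neither form, 8 rose, with a median of 0.30. Of the 6 without CCACG, 2 rose (Sec61b and Ssr4), with a median of 0.15. Of the members with the full element, Creld2, Hsp90b1 and Syvn1 rose, whereas Hspa5, Calr, Canx, Dnajc3 and Pdia6 did not pass as deposited. Hspa5, Calr and Pdia6 passed under each of the 3 other scalings, and Canx and Dnajc3 under none of them. The other classes also gained members under each of the 3. These were Derl2, Ssr3 and Ern1, with CCACG but neither form, and Pdia3 and Eif2ak3, without CCACG. Edem1 and Ssr4, which rose, had no match to either form. The difference between the classes was not tested.

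Among the other genes of these pathways, a few passed the test as deposited. Of 26 further folding enzymes, 5 rose and 1 fell: Txndc5, a disulfide isomerase abundant in plasma cells, rose by 0.86 ± 0.102, and Ero1lb, Erp29, Erp44 and Mogs by 0.46, 0.42, 0.23 and 0.22, while the isomerase Pdia5 fell by 0.57 on the log2 scale. Of 18 further degradation genes, 2 rose and 0 fell. These were Derl3, a relative of Derl1 and Derl2, from 5.36 ± 1.19 TPM in Saline to 24.5 ± 5.25 TPM in CDG_HDM (2.00 ± 0.151), and the ubiquitin-conjugating enzyme Ube2j1 (0.57). Of 25 further entry and glycosylation genes, Ostc rose (0.24) and Tusc3 and Sec63 fell (by 0.29 and 0.28 on the log2 scale). Of 20 ER to Golgi transport genes, Surf4, a cargo receptor, rose (0.27) and 0 fell. Of all genes, 9.35% rose and 22.8% fell as deposited. With a common sum, 14, 14, 16 and 14 of these 4 lists' genes were called higher in that order (26.2% of all genes). The counts were 14, 10, 11 and 10 with median-of-ratios scaling (22.4%) and 12, 9, 10 and 10 with quantile normalization (20.5%). Tusc3 and Sec63 were no longer called with a common sum. In their list, 2 genes were lower with median-of-ratios scaling and 3 with quantile normalization.

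Of 27 further stress sensors and targets, 5 rose and 5 fell. Xbp1, the transcription factor that Ern1 activates, went from 104 ± 8.54 TPM in Saline to 188 ± 20.5 TPM in CDG_HDM, a change of 0.84 ± 0.111 (adjusted p = 8.97e-07). Phgdh, an enzyme of serine synthesis known as an Atf4 target, rose by 0.75 and Ddit4 by 0.52, whereas Atf5, a transcription factor downstream of PERK, fell by 0.62 on the log2 scale and Mbtps1, the protease that cleaves Atf6, by 0.32. Xbp1, Phgdh, Ddit4, Atf5 and Mbtps1 kept their direction and their call under the 3 scalings. The calls of the whole list depended on the scaling. Median-of-ratios scaling, quantile normalization and a common sum called 10, 10 and 13 of the 27 higher and 3, 6 and 2 lower. Ern2, the IRE1 relative of mucous cells, averaged 0.0531 TPM in Saline and 0.0698 TPM in CDG_HDM.

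Markers of several cell types were measured in the same comparison. Of 12 plasma cell markers, 11 rose and 0 fell, with a median change of 1.51, and their summed level was 328 to 400 TPM in Saline and 2258 to 4252 TPM in CDG_HDM. Derl3, Txndc5 and Xbp1 belong both to that marker list and to the pathway lists above. Macrophage markers rose in 11 of 12 cases, from 3092 to 3573 TPM in Saline to 4917 to 9094 TPM in CDG_HDM. Alveolar type 2 markers rose in 3 of 10 and fell in 0 (summed 21670 to 23766 TPM in Saline and 20362 to 30032 TPM in CDG_HDM). Club cell markers fell in 5 of 6 (70913 to 82601 TPM against 24436 to 54527 TPM), and endothelial markers in 7 of 8 (1485 to 1800 TPM against 594 to 1193 TPM). Goblet cell markers rose in 2 and fell in 1 of 10 (42.0 to 96.3 TPM against 39.3 to 96.4 TPM), and fibroblast and matrix markers rose in 2 and fell in 2 of 8 (1204 to 1321 TPM against 992 to 1938 TPM). These counts are as deposited, where 9.35% of all genes rose and 22.8% fell. With median-of-ratios scaling, quantile normalization and a common sum, 6, 6 and 8 of the 10 alveolar type 2 markers were higher. Of all genes, 22.4%, 20.5% and 26.2% were higher. Under each of the 3, 12 of 12 plasma cell and 11 of 12 macrophage markers were higher. Lower under each were 4 of 6 club cell and 7 of 8 endothelial markers. No gene of these lists was at 0 in any library. The part of these cells in the change of the members was not tested by this comparison.

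Within groups, part of the members followed the plasma cell markers from library to library. The slope of each gene on the mean log2 level of those markers was fitted over the 22 libraries of CDG_HDM, AM155 and Dex_CDGHDM with group as a term, so that differences between groups do not enter. The markers include Derl3, Txndc5 and Xbp1, which also belong to the pathway lists above. The slopes therefore cannot tell plasma cell content from a shared level of ER genes, and the part of each was not tested. As deposited, 8 of 38 members had a positive slope past the test and 0 a negative one (background 8.75%). As TPM moves all genes together, the fit was repeated with the linear table at a common sum, and 8 members again passed (background 8.08%). The slopes were 0.92 ± 0.11 for Sec11c, 0.82 ± 0.13 for Edem1, 0.81 ± 0.08 for Ssr4, 0.62 for Edem2, 0.53 for Sdf2l1, 0.48 for Spcs3, 0.48 for Fkbp11 and 0.45 for Sec61b, in log2 per log2. All 8 were among the members that rose with sensitization. Without the 2 libraries farthest from the median of the markers (Dex_CDGHDM 4 and CDG_HDM 4), 7 passed at a common sum (5.83% of all genes). Within each group alone, as deposited, 0 members passed, where 0.218% of all genes passed higher in CDG_HDM, 2.57% in AM155 and 0 genes in Dex_CDGHDM. The median slope of the members was 0.03 in CDG_HDM alone (all genes -0.24), 0.59 in AM155 alone (all genes 0.52) and 0.51 in Dex_CDGHDM alone (all genes 0.27), and the difference between groups was not tested.

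The same 8 members were also among the 10 with a positive slope on the macrophage markers at a common sum (background 6.32%), the others being Pdia3 and Sec61a1. On the alveolar type 2 markers, 7 members had a positive slope (background 6.89%), and these were Pdia6 (0.99), Calr (0.85), Dnajc3 (0.83), Pdia3 (0.79), Canx (0.59), Dnajb11 (0.56) and Sel1l (0.49). The slopes on different marker lists were fitted separately, and the difference between them was not tested.

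Other members followed Hspa5. In a fit added after the values were seen, with Hspa5 in place of the markers, 18 of the 37 other members had a positive slope at a common sum (background 4.42%). The largest were those of Creld2 (0.84 ± 0.12), Hyou1 (0.65 ± 0.08), Manf (0.62 ± 0.07), Calr (0.60 ± 0.07), Pdia6 (0.59 ± 0.06) and Dnajc3 (0.57 ± 0.05). The 18 included chaperones that did not pass the test for sensitization, such as Calr, Canx, Hyou1, Dnajc3, Pdia3 and Pdia6, and Ddit3 (0.54 ± 0.11). The 7 members with a positive slope on the alveolar type 2 markers were all among these 18. Sdf2l1 was the only member with a positive slope past the test on both Hspa5 and the plasma cell markers, and 12 of 37 passed on neither, among them Ern1, Eif2ak3, Atf6, Atf4 and Trib3. The difference between the slopes on Hspa5 and on the markers was not tested. Without the 2 libraries farthest from the median of Hspa5 (Dex_CDGHDM 6 and CDG_HDM 10), 14 passed, against 0.895% of all genes in that fit. As deposited, 28 passed against 37.2% of all genes.

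**Figure D3:**
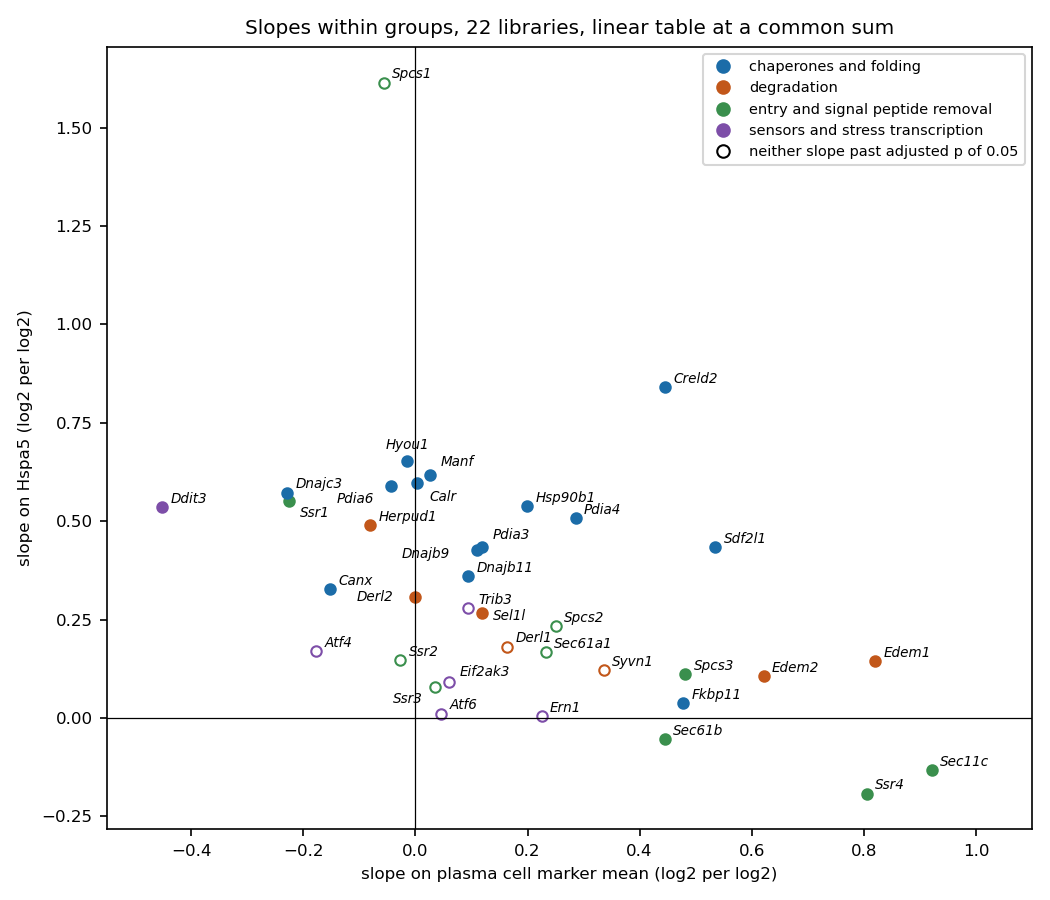
Slopes within groups over 22 libraries at a common sum, on the plasma cell marker mean (horizontal, log2 per log2) and on Hspa5 (vertical, log2 per log2), for the 37 members other than Hspa5, coloured by role. Sec11c, Edem1 and Ssr4 lie far right at 0.92, 0.82 and 0.81, and Hyou1, Manf and Calr lie high at 0.65, 0.62 and 0.60; Spcs1 lies highest but is open, as it did not pass the test.

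Neither treatment moved a member past the test. In Dex_CDGHDM against CDG_HDM, 0 of 38 members were called in either direction, against 0.00574% of all genes (1 gene). The median change of the members was -0.10, against -0.01 for all genes, and 31 of 38 lay below 0, as did 55.3% of all genes. At a common sum 27 of 38 lay below 0 and the members' median was -0.06, against 0.03 for all genes. It was -0.04 without Dex_CDGHDM 4 (all genes 0.02) and -0.15 without Dex_CDGHDM 6 (all genes -0.03). At an unadjusted limma p under 0.05, 4 members were lower and 0 higher, where 2.25% of all genes were lower, and by exact permutation 3 members were lower. The 4 by limma were Sdf2l1 (-0.30, interval -0.53 to -0.07), Edem1 (-0.29, -0.53 to -0.04), Manf (-0.27, -0.51 to -0.03) and Syvn1 (-0.26, -0.46 to -0.05). Of these, Manf did not pass by exact permutation (unadjusted p = 0.065). Edem1 ranged from 15.9 to 31.8 TPM in Dex_CDGHDM, with a median of 24.5 TPM, and overlapped with CDG_HDM.

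In AM155 against CDG_HDM, 0 of 38 members were called, against 0.103% of all genes. The median change was -0.17, against -0.08 for all genes, and 37 of 38 lay below 0, as did 82.4% of all genes. At a common sum the members' median was -0.05, against 0.03 for all genes, and 29 of 38 members lay below 0. Without the 3 libraries of highest circular sum the members' median was -0.07, against 0.02 for all genes. Without AM155 6 it was -0.12, against -0.01 for all genes. At an unadjusted limma p under 0.05, 10 members were lower and 0 higher, where 6.42% of all genes were lower, and by exact permutation 7 members were lower. The largest by limma were Dnajb9 (-0.42, interval -0.68 to -0.17, adjusted p = 0.469), Sdf2l1 (-0.35, -0.58 to -0.12), Hyou1 (-0.35, -0.60 to -0.10) and Hspa5 (-0.35, -0.66 to -0.04). Of these, Hspa5 did not pass by exact permutation (unadjusted p = 0.052), whereas Dnajb9, Sdf2l1 and Hyou1 did. Dnajb9 ranged from 25.9 to 38.1 TPM in AM155, with a median of 31.1 TPM, and from 33.8 to 51.1 TPM in Dex_CDGHDM. The 2 treated groups differed in 0 of 38 members, against 0.0803% of all genes. Both treatments were set against the same CDG_HDM libraries.

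**Figure D4:**
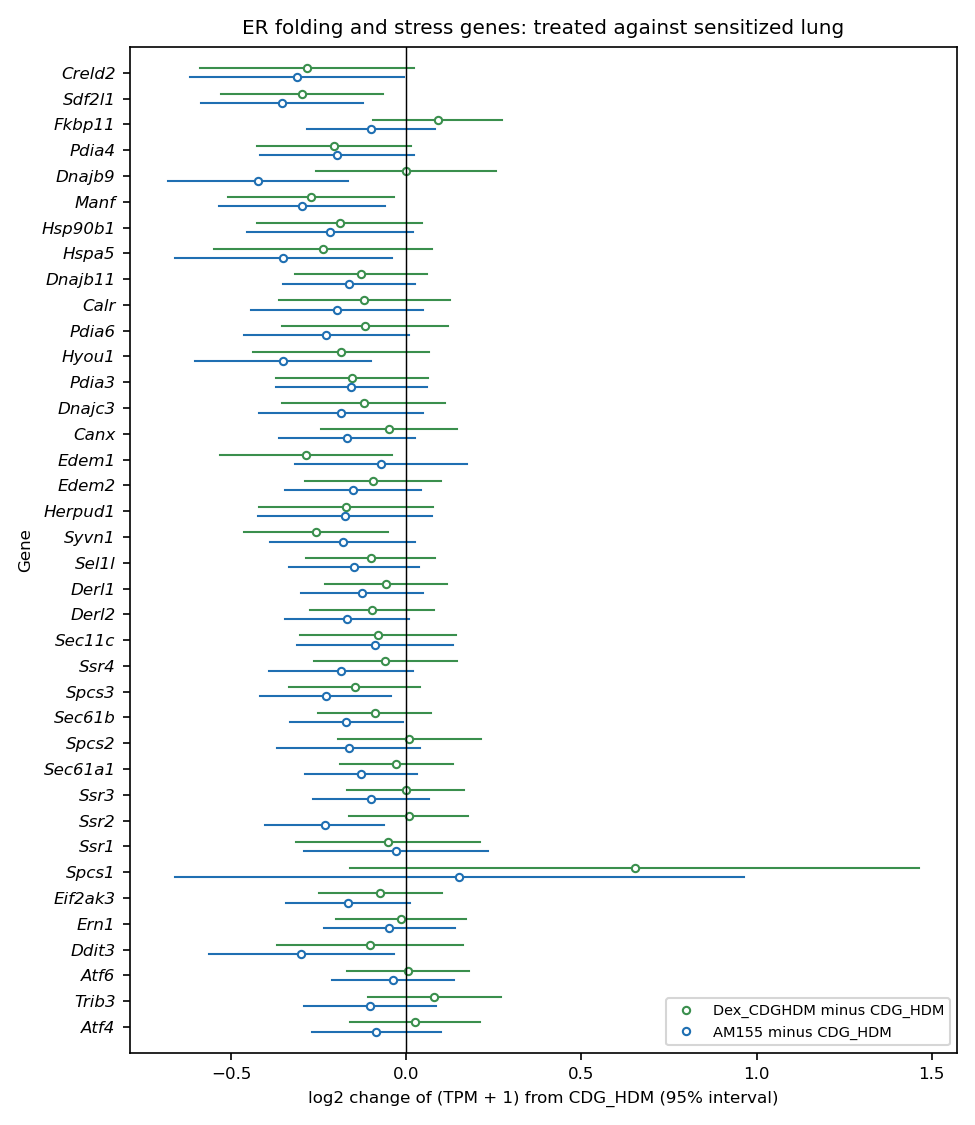
Log2 change of (TPM + 1) from CDG_HDM for the 38 members in Dex_CDGHDM (n = 6) and AM155 (n = 6), with 95% intervals of the limma fit. All points are open because 0 of 38 passed an adjusted p of 0.05 in either comparison.

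Against the same Saline libraries, 11 of 38 members were higher in Dex_CDGHDM (background 7.59%) and 12 in AM155 (background 7.82%), beside the 18 in CDG_HDM. Edem1 had changes of 1.60, 1.31 and 1.52 in CDG_HDM, Dex_CDGHDM and AM155, and Sec11c of 1.11, 1.03 and 1.02. Creld2 had 1.02, 0.74 and 0.71, Sdf2l1 1.00, 0.70 and 0.64, and Fkbp11 0.69, 0.78 and 0.59. The 3 comparisons share the Saline libraries and are not independent. The plasma cell markers, summed, were 1716 to 3398 TPM in Dex_CDGHDM and 2177 to 4055 TPM in AM155.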

How the data were processed

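Total RNA of mouse lung was sequenced after ribosomal depletion as stranded, paired-end libraries, per the labels, which give read lengths of 150 and 100 nucleotides. The values are TPM, as the authors deposited them for linear and circular RNA by gene symbol. Per the submitters' processing notes, the mm10 build and CASAVA 1.9 were used, whereas aligner, quantifier and annotation were not given in the sources used here. TPM holds no counts, so the depth is unknown. In all, 4 rows with duplicated symbols were left out. Genes that reached 1 TPM in 5 or more of the 27 libraries were fitted as log2(TPM + 1) in 1 model of all groups with limma 3.58.1 in R 4.3.3 (trend, two-sided, Benjamini-Hochberg), which was tested on simulated data. Members and lists were chosen with earlier results of these data known. Values per library are given for up to 10 called members of largest change and for 3 sensors, beside all members by role; genes of the other lists are named from those called, and the values of Hspa5 by library and of Ern2 were chosen after they were seen. Alternatives were other pseudocounts, filters, scalings, weights, a permutation test, a replicate block and leaving out libraries. Fits on Hspa5, those on other markers at a common sum, and those without the libraries of highest circular sum, were added after seeing the data. Gene positions are from GENCODE M21 (GRCm38).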

Additional observations from a re-analysis of the deposited data

Results flagged for a closer look

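Of 152 sets of values examined (38 members in 4 groups), 7 held a library apart from the rest of its group by Dixon's criterion, and chance gives about 1 in 20. In 6 of the 7 the library was Saline 4. It had the lowest level of Canx (124 TPM, the others 149 to 153), Dnajb11 (57.6 TPM, the others 71.3 to 75.8), Spcs3 (19.1 TPM, the others 22.2 to 23.3), Ssr3 (59.4 TPM, the others 74.2 to 79.1) and Ern1 (26.9 TPM, the others 36.2 to 37.3). It had the highest level of Pdia3 (112 TPM, the others 91.7 to 94.9). In the AM155 group, AM155 2 had the highest level of Fkbp11 (15.7 TPM, the others 11.0 to 12.4).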

How the results depend on the processing

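Of the 18 members called in CDG_HDM against Saline, 14 kept their call in all 39 other settings, and 0 reversed. The count of members higher was 29 with median-of-ratios scaling and 30 with quantile normalization or a common sum. With array weights 1 member, Atf6, was lower, where 7742 of all 17433 genes were lower. The same replicate numbers occur in several groups. The deviations of same-numbered libraries had a median correlation of 0.02 over 20 pairs (range -0.24 to 0.27, 2 above 0.1). No pairing by number was seen, but so few pairs cannot exclude one. A fit with the replicate block called 14 members (6.98% of all genes), without Dnajb11, Hsp90b1, Sel1l and Spcs2, whose changes in it were 0.36, 0.43, 0.32 and 0.28. Spcs2 was lost in 7 settings, Hsp90b1 also without Saline 10. Leaving out each library in turn gave 16 to 20 members higher, where 1444 to 1773 of all 17433 genes were higher. Members lower by unadjusted exact permutation numbered 3 in Dex_CDGHDM and 7 in AM155, against 4 and 10 by limma at the same unadjusted threshold and 0 after adjustment. The slope on plasma cell markers passed for 0 members in CDG_HDM alone, 0 in AM155 alone and 0 in Dex_CDGHDM alone, and the cause was not tested. Depth is unknown, so low members such as Spcs1 and Trib3 have no counting error attached.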

Other observations

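Circular RNA was listed for 11 of the 38 members (28.9%, against 25.2% of all genes tested), by gene symbol and without junction positions, so no value belongs to a particular circle. Canx, the lectin chaperone, was above 0 in 27 of 27 libraries, with at most 85.4 TPM. The other members above 0 in more than a few libraries were Atf6 (15 libraries), Hspa5 (14) and Ern1 (13). Hsp90b1 was above 0 in 5 libraries and reached 1325 TPM in CDG_HDM 10, whereas its linear values over all libraries were 203 to 375 TPM. Edem1, which rose most in linear RNA, was above 0 in 5 libraries. Pdia3 was above 0 in 2 libraries, and Calr, Sec61a1, Eif2ak3 and Ddit3 in 1 each.

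The spread of the members between libraries differed by group. The median coefficient of variation of TPM over the 38 members was lowest in the unsensitized group (9.50%), and stood at 13.3% in CDG_HDM libraries, 15.7% in those of AM155 and 16.4% in those of Dex_CDGHDM. The difference was not tested.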
